A study of Homo sapiens with 16 samples.

Results

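The difference in nuclear retention, read here as the ratio of nuclear to cytoplasmic level, was measured between the human liver tumour lines HepG2 and SNU-449. The cells had received only a negative control siRNA (NC). For each gene the log2 ratio of nuclear to cytoplasmic level was taken in SNU-449 and in HepG2, and the HepG2 ratio was subtracted from the SNU-449 ratio. A positive value means that the RNA lay more in the nucleus in SNU-449, and a negative value that it lay more in the nucleus in HepG2. The comparison used 8 of the 16 libraries of the series: the cytoplasm and the nucleus of each line 48 h after NC transfection, with biological duplicates of each. The other 8 libraries came from cells transfected for 48 h with siPANAD-1 plus siPANAD-2, 2 siRNAs given together that target PANAD (gene symbol C7orf25), and served here only as a second, separate set in which the same line difference could be measured. HepG2 is a hepatoblastoma-derived line with many hepatocyte traits, grown in DMEM, and SNU-449 is a hepatocellular carcinoma line, grown in RPMI. Each line had its own growth medium and its own count table, so line, medium and table cannot be told apart. Of 67938 gene entries, 13940 had enough counts in the NC libraries of each line to be tested.

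Messenger RNAs are transcribed, capped, spliced and polyadenylated in the nucleus, and then pass the nuclear pore with the export receptor NXF1 and its partner NXT1, which are loaded through the TREX complex. An RNA is found mostly in the nucleus when it is exported slowly, when introns remain in it, when it is an architectural or regulatory non-coding RNA that stays there, or when its cytoplasmic copies are short-lived. Long non-coding RNAs such as MALAT1 and NEAT1 are standard nuclear RNAs, whereas mRNAs of ribosomal proteins and of glycolytic enzymes are long-lived in the cytoplasm.

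The libraries held 16238235 to 30321908 counts, the highest in HepG2 cytoplasm NC replicate 2. By chi-square per degree of freedom, a measure that grows with the number of counts, that library and its duplicate differed most among the 4 NC pairs (34.0, against 6.09 to 13 in the others). The Pearson coefficient of log2 levels was 0.987 in this pair and also in the SNU-449 cytoplasm pair. It was 0.991 in the HepG2 nucleus pair and 0.993 in the SNU-449 nucleus pair. HepG2 markers were present as labelled: ALB at 7167 to 9895 CPM (counts relative to the total of the library, before any further scaling) and HNF4A at 311 to 486 in HepG2, against 0 to 0.283 and 0 to 0.113 in SNU-449. Of the mesenchymal markers VIM was at 1080 to 1750 CPM in SNU-449 and had 1 count in all HepG2 NC libraries, whereas FN1 was far higher in HepG2 (2560 to 7314, against 6.46 to 73.5 CPM in SNU-449) and ZEB1 overlapped between the lines. Of the immune and blood cell markers none had enough counts in both lines to be tested, although LYZ (115 to 505 CPM) was detected in HepG2 and CD14 (9.85 to 21.8 CPM) in SNU-449. C7orf25 had 0 to 7 counts in every NC library and was not tested.

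The fractions were separated in both lines. MALAT1, a nuclear non-coding RNA (ENSG00000251562.9, chromosome 11, 65497688 to 65506516, plus strand, GRCh38), was at 6.8 and 7.09 CPM in HepG2 cytoplasm, 338 and 331 in HepG2 nucleus, 4.76 and 3.24 in SNU-449 cytoplasm and 327 and 323 in SNU-449 nucleus, here and below after TMM scaling, which brings the typical gene to an equal level in all libraries. Its log2 ratio was 5.58 in HepG2 and 6.34 in SNU-449, a difference of 0.76 (SE 0.25, adjusted p = 0.0146) by the quasi-likelihood F-test of edgeR, with adjustment over all genes tested. The call was lost without SNU-449 cytoplasm NC replicate 2 (0.52, adjusted p = 0.176), and the difference was 0.06 once the spread of the ratios was matched between the lines. GAPDH mRNA, for a glycolytic enzyme, had ratios of -2.74 and -2.51, and its difference of 0.23 did not pass the test (adjusted p = 0.466). With counts scaled to library totals alone the GAPDH difference was 0.53 and passed (adjusted p = 0.0321). A ratio is relative to the typical gene of the same libraries, not an amount per cell, and in bulk fractions fewer cells carrying an RNA and less RNA per cell cannot be told apart. The side named for a gene, nuclear or cytoplasmic, and the order of its fractions are relative in the same way. The TMM factors were 0.718 to 0.867 for the cytoplasmic and 1.20 to 1.33 for the nuclear libraries. Small differences between fractions can therefore change order with another scaling. A ratio also does not tell slow export from short-lived cytoplasmic copies. Carry-over from one fraction into the other was not measured.

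The ratio of nuclear to cytoplasmic level differed between the lines for a large share of the transcriptome. Of 13940 genes, 3108 (22.3%) were more nuclear in SNU-449 and 2818 (20.2%) in HepG2 at an adjusted p under 0.05, together 5926 (42.5%). At least 1 on the log2 scale was reached as well by 1759 (12.6%) and 1393 (9.99%). With counts scaled to library totals alone, the split was 4675 to 1632, because the median difference over all genes was then 0.34 instead of 0.03. A direction is therefore relative to the typical gene, and differences closer to 0 than that shift depend on the scaling. In 5895 of the 5926 called genes, each possible pairing of a nuclear with a cytoplasmic library gave a higher ratio in one line than every pairing in the other; the same held for 60.9% of all genes tested. The ratios of the whole transcriptome were spread somewhat more widely in SNU-449 (median absolute deviation 1.74) than in HepG2 (1.54).

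**Figure D1:**
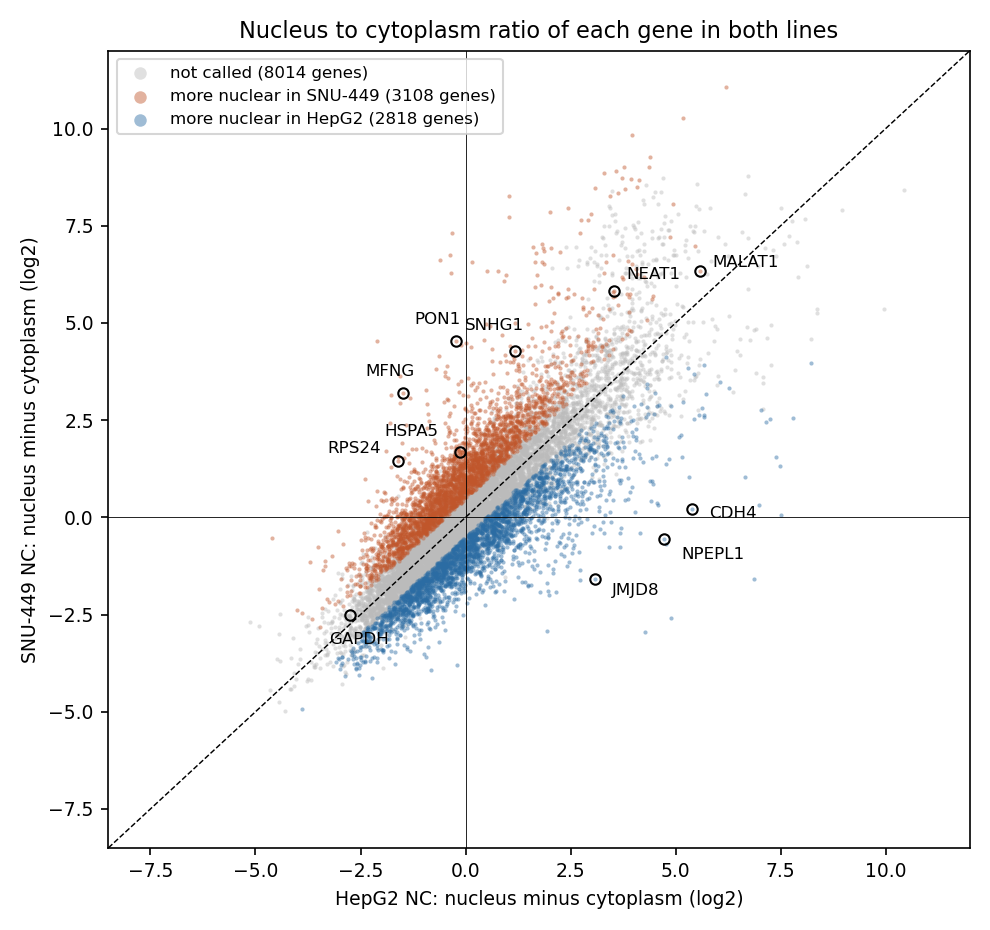
Log2 ratio of nuclear to cytoplasmic level of 13940 genes, in HepG2 NC (horizontal axis) and SNU-449 NC (vertical axis), with the genes called in each direction coloured and the dashed line marking equal ratios. The 3108 genes more nuclear in SNU-449 lie above the line and the 2818 genes more nuclear in HepG2 below it, with MFNG and RPS24 in the upper left and NPEPL1 and JMJD8 in the lower right part, where the ratio has opposite signs in the lines.

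A change of side was less frequent than a change of degree. Among the called genes, 4084 had ratios of the same sign in both lines after TMM scaling. A ratio called as nuclear in SNU-449 and as cytoplasmic in HepG2 was found for 386 genes, and the reverse for 305, where 81.2% of all genes had a called ratio in SNU-449 and 79.4% in HepG2. The line difference in the cytoplasm was larger than that in the nucleus for 73.4% of the genes more nuclear in SNU-449 and for 67.1% of those more nuclear in HepG2, against 62.5% of all genes tested. The genes more nuclear in SNU-449 had a median cytoplasmic level that was -1.18 (log2) apart between SNU-449 and HepG2, beside -0.04 in the nucleus. For the genes more nuclear in HepG2 these medians were 1.02 in the cytoplasm and -0.05 in the nucleus. These medians come from the same libraries that gave the calls and are a description of them.

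The largest differences of protein-coding genes toward SNU-449 included those of MFNG and PON1. MFNG (ENSG00000100060.18, chromosome 22, 37469063 to 37486401, minus strand), a glycosyltransferase that modifies Notch receptors, was at 81.3 and 77.6 CPM in HepG2 cytoplasm, 23.5 and 33.2 in HepG2 nucleus, 5.28 and 5.3 in SNU-449 cytoplasm and 43.2 and 54.5 in SNU-449 nucleus. Relative to the typical gene, it therefore lay toward the cytoplasm in HepG2 and toward the nucleus in SNU-449. The 4 groups did not overlap, and the ratios of -1.49 and 3.21 differed by 4.69 (SE 0.24, adjusted p = 2.34e-14). GDPD3, a lysophospholipase D, had ratios of -1.55 and 2.93 and a difference of 4.49 (SE 0.36, adjusted p = 2.4e-10). PON1, the paraoxonase carried on high-density lipoprotein, was at 3.33 and 4.32 CPM in HepG2 cytoplasm, 3.26 and 3.45 in HepG2 nucleus, 0.453 and 0.147 in SNU-449 cytoplasm and 6.23 and 7.85 in SNU-449 nucleus. Its nuclear level was higher in SNU-449, while its cytoplasmic level was lower there, which gave a difference of 4.75 (SE 0.48, adjusted p = 7.11e-09).

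EFEMP2, the elastic-fibre protein fibulin-4, differed by 4.47 (SE 0.41, adjusted p = 1.43e-09), with 50.7 and 38.3 CPM in HepG2 cytoplasm, 42.8 and 46.5 in HepG2 nucleus, 0.377 and 0.147 in SNU-449 cytoplasm and 6.05 and 5.85 in SNU-449 nucleus. In SNU-449 the nuclear level was far above the cytoplasmic one, which rests on 5 and 2 counts, and in HepG2 the fractions overlapped. AOC3, an amine oxidase of the cell surface, differed by 3.5 (SE 0.32, adjusted p = 1.26e-09). ALDOC, the brain form of aldolase, differed by 3.16 (SE 0.31, adjusted p = 4.88e-09), with 0.957 and 1.13 CPM in SNU-449 cytoplasm. SULT1C2, a sulfotransferase, had 0 and 1 counts in SNU-449 cytoplasm against 117 and 106 in SNU-449 nucleus, so the size of its fitted difference rests on 1 count and is not given. MTRNR2L12, a nuclear copy of the mitochondrial 16S ribosomal RNA gene, differed by 4.08; reads of the mitochondrial gene cannot be told apart from it, and the 37 mitochondrial genes in the tables had 0 counts.

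Among the genes most shifted toward the HepG2 nucleus was CDH4 (ENSG00000179242.16, chromosome 20, 61252426 to 61940617, plus strand), which encodes R-cadherin. It was at 0.362 and 0.32 CPM in HepG2 cytoplasm, 12.9 and 15.9 in HepG2 nucleus, 47 and 57.2 in SNU-449 cytoplasm and 65.6 and 54.8 in SNU-449 nucleus. In HepG2 the nuclear level was far above the cytoplasmic one, which rests on 5 and 8 counts, in SNU-449 the fractions overlapped, and the difference was -5.19 (SE 0.33, adjusted p = 1.16e-12). NPEPL1 (ENSG00000215440.12, chromosome 20, 58689131 to 58719238, plus strand), an aminopeptidase-like gene that shares 22.1% of its exonic bases with another gene of the same strand, was at 0.796 and 1.08 CPM in HepG2 cytoplasm, 24 and 28.1 in HepG2 nucleus, 15.1 and 16.8 in SNU-449 cytoplasm and 10.4 and 11.5 in SNU-449 nucleus. It was, relative to the typical gene, nuclear in HepG2 and slightly cytoplasmic in SNU-449, with a difference of -5.28 (SE 0.29, adjusted p = 2.34e-14).

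JMJD8, which encodes a JmjC-domain protein, was at 2.61 and 2.4 CPM in HepG2 cytoplasm, 20.3 and 21.7 in HepG2 nucleus, 43.3 and 46.2 in SNU-449 cytoplasm and 13 and 17 in SNU-449 nucleus. The order of its fractions was reversed between the lines, with a difference of -4.66 (SE 0.25, adjusted p = 2.34e-14); 37.4% of its exon sequence overlaps a gene of the opposite strand, and the use of strand in counting is not given in the sources used here. SYT15, a synaptotagmin, and AKR7A3, an aldehyde reductase, differed by -4.3 (SE 0.48, adjusted p = 4.45e-08) and -4.2 (SE 0.47, adjusted p = 3.87e-08). BSCL2, which encodes the lipid droplet protein seipin, and PRAF2 differed by -4.0 and -4.08, but 40.6% and 43.6% of their exonic bases are shared with a gene of the same strand. DIPK1B lies over 40.5% of its exonic bases opposite another gene and differed by -3.64. ANKDD1A had 0 and 2 counts in HepG2 cytoplasm against 134 and 152 in HepG2 nucleus, and 68 and 85 against 159 and 156 counts in SNU-449, and no fold is given for it. TMEM191C, STAG3L1 and STAG3L2 belong to families of near-identical copies, and their differences of -3.69, -3.26 and -3.32 are uncertain for that reason.

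**Figure D2:**
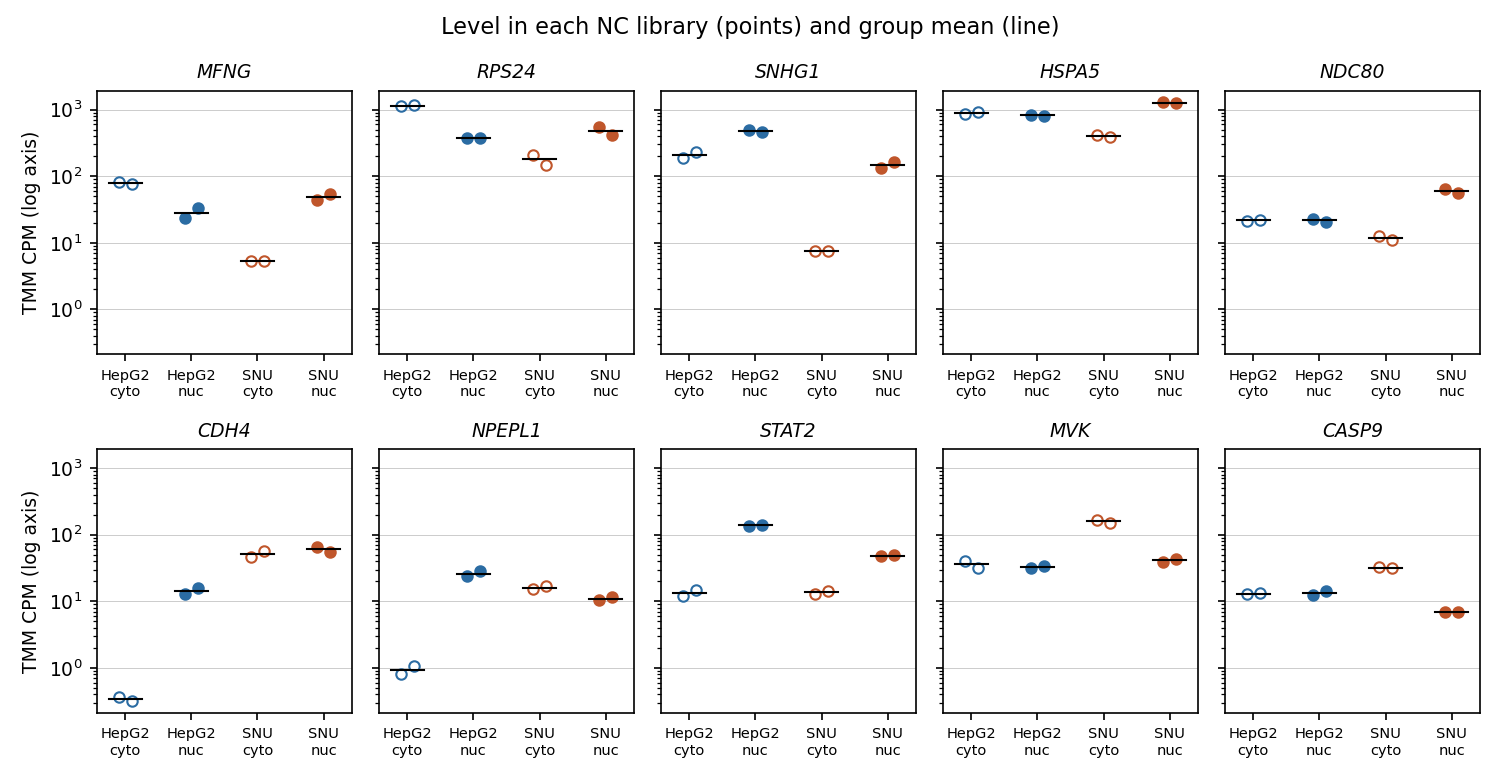
Level in each NC library (TMM CPM, log axis) of 10 genes, with cytoplasmic libraries as open and nuclear libraries as filled points, HepG2 in blue, SNU-449 in red, and the group mean as a line. The upper row holds genes more nuclear in SNU-449 and the lower row genes more nuclear in HepG2; duplicates lie close together, and for MFNG and RPS24 the order of the fractions is reversed between the lines.

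Long non-coding RNAs did not move as 1 class. Of 1425 tested, 175 (12.3%) were more nuclear in SNU-449 and 194 (13.6%) in HepG2, both below the shares of all genes. Most of them were at low level: only 202 had at least 5 CPM in each line. In a fit of genes with that minimum, 39 and 56 of the 202 were called, with a median of -0.17. Over all 9561 genes of that fit the calls were 2505 and 2401, with a median of 0.00. Of the 15 tested members of a list of known nuclear lncRNAs, 6 were more nuclear in SNU-449 and 4 in HepG2, with a median difference of 0.06 beside 0.03 for all genes. NEAT1 (ENSG00000245532.10, chromosome 11, 65422774 to 65445540, plus strand), the scaffold of paraspeckles, was at 79.8 and 109 CPM in HepG2 cytoplasm, 996 and 1200.5 in HepG2 nucleus, 8.76 and 6.85 in SNU-449 cytoplasm and 437 and 444 in SNU-449 nucleus. Its cytoplasmic level was far lower in SNU-449 than in HepG2, its nuclear level was lower too, by less, and the ratios differed by 2.28 (SE 0.25, adjusted p = 2.72e-08). TUG1, a largely nuclear RNA that also occurs in the cytoplasm, differed by 1.74 (SE 0.27, adjusted p = 2.82e-05), and SNHG14, the long transcript over the imprinted UBE3A region, by 0.85 (SE 0.22, adjusted p = 0.00264). KCNQ1OT1, the antisense transcript that silences its imprinted neighbours, went the other way with -1.77 (SE 0.53, adjusted p = 0.00747); this call was lost without SNU-449 cytoplasm NC replicate 2 (-1.63, adjusted p = 0.0986), and as an antisense gene it could hold reads of its partner.

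Of 12 tested lncRNAs known from the cytoplasm, 6 were more nuclear in SNU-449 and 1 in HepG2 (median 0.60, or 0.36 without HepG2 cytoplasm NC replicate 2). NORAD, which binds Pumilio proteins in the cytoplasm, was at 175 and 205 CPM in HepG2 cytoplasm, 173 and 181 in HepG2 nucleus, 73.2 and 72.1 in SNU-449 cytoplasm and 122 and 130.1 in SNU-449 nucleus. Its fractions overlapped in HepG2 and did not in SNU-449, where the nuclear level was higher, and the difference was 0.90 (SE 0.20, adjusted p = 0.000461). MIR4435-2HG differed in the other direction by -0.91 (SE 0.21, adjusted p = 0.000664).

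Several non-coding RNAs had no count at all in the SNU-449 cytoplasm. LINC01355 had 0 and 0 counts there and 349 and 287 in the SNU-449 nucleus, against 2 and 6 in HepG2 cytoplasm and 300 and 307 in HepG2 nucleus. If its SNU-449 cytoplasm is set to the limit of 3 counts over both libraries, the difference is 0.75, and in the siPANAD libraries it was -2.06 (adjusted p = 0.0699). EHBP1-AS1, an antisense gene, also had 0 and 0 counts, with 0.80 at that limit and -1.07 (adjusted p = 0.474) in the siPANAD libraries. The small nucleolar RNAs SNORD14A and SNORA73B differed by 1.81 (at the limit) and 4.28, but standard libraries hold few molecules of that size. SNORD14A lost its call without HepG2 cytoplasm NC replicate 2 (3.69, adjusted p = 0.24).

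Genes that host small nucleolar RNAs in their introns lay further in the SNU-449 nucleus. Of 27 tested, 13 were more nuclear in SNU-449 and 4 in HepG2, and the median difference was 0.75 (SD 0.23 over the 16 combinations of 1 library per group); the HepG2 count was 2 without HepG2 nucleus or SNU-449 cytoplasm NC replicate 2. Many of these transcripts are degraded in the cytoplasm by nonsense-mediated decay once they are translated. SNHG1, which hosts box C/D snoRNAs, was at 189 and 231 CPM in HepG2 cytoplasm, 493 and 462 in HepG2 nucleus, 7.55 and 7.66 in SNU-449 cytoplasm and 131 and 164 in SNU-449 nucleus. The SNU-449 cytoplasm stood far below the other 3 groups, and the ratios of 1.19 and 4.28 differed by 3.09 (SE 0.23, adjusted p = 3.57e-11). SNHG5 differed by 2.86 (SE 0.35, adjusted p = 2.11e-07), GAS5 by 1.5 (SE 0.22, adjusted p = 2.86e-06) and SNHG16 by 1.5 (SE 0.20, adjusted p = 7.78e-07), although SNHG16 lies over 30.6% of its exonic bases opposite another gene. GAS5 was at 317 and 417 CPM in HepG2 cytoplasm, 432 and 519 in HepG2 nucleus, 87.6 and 80.9 in SNU-449 cytoplasm and 299 and 317 in SNU-449 nucleus, so that it was moderately nuclear in both lines and more so in SNU-449. SNHG17 and SNHG29 went the other way, with -1.5 (SE 0.22, adjusted p = 2.45e-06) and -1.33 (SE 0.28, adjusted p = 0.00116).

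Of 12 tested lncRNAs that host microRNAs, 2 were more nuclear in SNU-449 and 1 in HepG2. The largest difference was that of MIRLET7BHG (ENSG00000197182.15, chromosome 22, 46053869 to 46113928, plus strand), whose last part holds the hairpins of let-7a-3 and let-7b. Their mature sequences (RefSeq, GRCh38.p14) are shown because they name the products of this host; they have the same seed, bases 2 to 8, in capitals.
hsa-let-7a-5p: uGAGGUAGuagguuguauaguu
hsa-let-7b-5p: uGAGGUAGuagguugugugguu
The host transcript stood at 11.7 and 8.73 CPM in HepG2 cytoplasm, 4.78 and 5.73 in HepG2 nucleus, 2.57 and 3.17 in SNU-449 cytoplasm and 8.85 and 9.73 in SNU-449 nucleus. It was cytoplasmic in HepG2 and nuclear in SNU-449, with no overlap between the groups of a line, and the difference was 2.64 (SE 0.31, adjusted p = 7.51e-08). Mature microRNAs were not measured in these libraries. MIR23AHG, the host of miR-23a, miR-27a and miR-24-2, had a difference of 0.79 (adjusted p = 0.0456), but the call was lost in many settings: with RLE scaling, DESeq2, the replicate block and matched spread (0.38), and when any of 5 of the 8 libraries was left out, with the value nearest 0 without HepG2 cytoplasm NC replicate 2 (0.27, adjusted p = 0.687).

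Cytosolic ribosomal protein mRNAs, which are abundant and stable in the cytoplasm, had median ratios of -2.32 in HepG2 and -1.83 in SNU-449, with calls mostly toward the SNU-449 nucleus. Of 79 tested, 27 were more nuclear in SNU-449, 3 in HepG2 and 49 were not called, and the median difference was 0.32. This median moved by an SD of 0.27 between combinations of replicates, and 5 to 8 members in place of 3 were more nuclear in HepG2 without HepG2 cytoplasm NC replicate 1 or 2, HepG2 nucleus NC replicate 1 or SNU-449 nucleus NC replicate 1. The median was 0.13 without HepG2 nucleus NC replicate 1, 0.56 without its duplicate and 0.20 without SNU-449 nucleus NC replicate 1. RPS24 (ENSG00000138326.21, chromosome 10, 78033732 to 78056813, plus strand), a protein of the small subunit, was at 1122 and 1180.2 CPM in HepG2 cytoplasm, 378 and 376 in HepG2 nucleus, 209 and 149 in SNU-449 cytoplasm and 548 and 422 in SNU-449 nucleus. The fractions changed order between the lines and did not overlap in either, with a difference of 3.05 (SE 0.24, adjusted p = 8.04e-11). RPS7 was at 1766 and 2187 CPM in HepG2 cytoplasm, 617 and 714 in HepG2 nucleus, 170.0 and 138 in SNU-449 cytoplasm and 332 and 275 in SNU-449 nucleus, and its difference was 2.55 (SE 0.24, adjusted p = 1.49e-09). RPL11, which also binds MDM2 outside the ribosome, differed by 2.14 (SE 0.23, adjusted p = 1.81e-08), and RPL14 by 1.92 (SE 0.21, adjusted p = 3.42e-08).

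Among the ribosomal protein genes more nuclear in HepG2 were RPL9 (-0.91, adjusted p = 0.00128) and RPS15A (-0.97, adjusted p = 0.0182). With the spread of the ratios matched, RPL9 and RPS15A no longer passed (-0.48 and -0.64). RPS15A did not pass with library totals (-0.65) either, nor without HepG2 nucleus, SNU-449 cytoplasm or SNU-449 nucleus NC replicate 2. Ribosomal protein genes have many processed pseudogenes, between which reads may have been split. The pseudogenes themselves, 414 tested over all processed pseudogenes, showed 73 and 26 calls and a median of 0.39.

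Translation factors were also called mostly toward SNU-449. Of 37 tested, 16 were more nuclear in SNU-449 and 3 in HepG2 (median 0.32). The HepG2 count was 5 with RLE scaling, DESeq2 or without HepG2 nucleus NC replicate 1, and 6 without HepG2 cytoplasm NC replicate 2. EIF4A2, the RNA helicase of the cap-binding complex, was at 223 and 286 CPM in HepG2 cytoplasm, 605 and 618 in HepG2 nucleus, 39.4 and 36.6 in SNU-449 cytoplasm and 427 and 451 in SNU-449 nucleus. Its level in SNU-449 cytoplasm was the lowest of the groups, and the difference was 2.27 (SE 0.22, adjusted p = 2.55e-09). EEF1A1, the elongation factor that delivers aminoacyl-tRNA, stayed cytoplasmic in both lines with ratios of -2.79 and -1.24, a difference of 1.55 (SE 0.25, adjusted p = 1.11e-05). EIF2S2, a subunit of the initiator tRNA carrier, differed by 1.76 (SE 0.21, adjusted p = 7.71e-08). EIF6, which keeps ribosomal subunits apart, and EIF3I were more nuclear in HepG2, with -0.99 (SE 0.22, adjusted p = 0.000719) and -0.89 (SE 0.20, adjusted p = 0.000752). For 21 members the mean log2 level over both fractions differed by less than 2-fold between the lines in the siPANAD libraries. Of these, 5 and 2 were called and the median was 0.13.

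Mitochondrial protein genes were split. Of 76 nuclear-encoded subunits of oxidative phosphorylation, 24 were more nuclear in SNU-449 and 7 in HepG2 (median 0.18, SD 0.19 over replicate combinations). Without SNU-449 nucleus NC replicate 1 the counts were 15 and 7, and without HepG2 cytoplasm NC replicate 2 or HepG2 nucleus NC replicate 1 the HepG2 count was 11. It was 3 or 4 without HepG2 nucleus, SNU-449 cytoplasm or SNU-449 nucleus NC replicate 2. NDUFS5 of complex I was at 131 and 101 CPM in HepG2 cytoplasm, 31.1 and 37.8 in HepG2 nucleus, 30 and 26.7 in SNU-449 cytoplasm and 45.5 and 34.2 in SNU-449 nucleus. It was cytoplasmic in HepG2, and in SNU-449 its nuclear level was the higher, with a difference of 2.24 (SE 0.23, adjusted p = 1.3e-08). UQCRH of complex III and ATP5PB of ATP synthase differed by 2.05 (SE 0.23, adjusted p = 6.55e-08) and 1.73 (SE 0.20, adjusted p = 5.77e-08), and SDHB of complex II by -1.44 (SE 0.21, adjusted p = 3.34e-06). Of 74 mitochondrial ribosomal proteins, 23 and 20 were called in the respective directions, and the median of -0.10 changed sign with library totals, with matched spread and without HepG2 nucleus or SNU-449 nucleus NC replicate 2. MRPL34 and MRPL58 were more nuclear in HepG2, with -1.34 (SE 0.20, adjusted p = 5.31e-06) and -1.3 (SE 0.20, adjusted p = 6.45e-06).

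Genes of the endoplasmic reticulum, which fold and move proteins of the secretory path, were called mostly toward SNU-449. Of 50 tested, 29 were more nuclear in SNU-449 and 3 in HepG2, with a median difference of 0.60 (SD 0.05 over replicate combinations). The HepG2 count was 5 without HepG2 cytoplasm NC replicate 2. Among the 38 members with levels within 2-fold between the lines, 23 and 1 were called and the median was again 0.60. HSPA5, the chaperone BiP, was at 875 and 931 CPM in HepG2 cytoplasm, 838 and 802 in HepG2 nucleus, 411 and 386 in SNU-449 cytoplasm and 1280.2 and 1264 in SNU-449 nucleus. In HepG2 the fractions differed little, in SNU-449 the nuclear level was about 3-fold the cytoplasmic one, and the ratios differed by 1.81 (SE 0.21, adjusted p = 8.78e-08). DAD1 and STT3A, subunits of the oligosaccharyltransferase, differed by 1.71 (SE 0.21, adjusted p = 1.73e-07) and 1.31 (SE 0.20, adjusted p = 4.05e-06), and SSR1 of the translocon-associated complex by 1.5 (SE 0.21, adjusted p = 1.54e-06). SSR1 was at 147 and 131 CPM in HepG2 cytoplasm, 101 and 88.4 in HepG2 nucleus, 33 and 23.8 in SNU-449 cytoplasm and 55.9 and 53.8 in SNU-449 nucleus. After TMM scaling its fractions lay in opposite order in the lines, but without that scaling they overlapped in HepG2. The 3 members more nuclear in HepG2 were SEC11C (-0.73), SSR4 (-0.66) and SEC61B (-0.61), and each lost its call with library totals. SSR4 and SEC61B also lost it without HepG2 nucleus, SNU-449 cytoplasm or SNU-449 nucleus NC replicate 2, and SEC61B without HepG2 cytoplasm NC replicate 1.

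Of 29 tested genes for proteins that the liver secretes, 15 were more nuclear in SNU-449 and 3 in HepG2, and the median was 0.90. These genes also differed most in level, with a median of -5.79 (log2, SNU-449 minus HepG2, siPANAD libraries), and in the 4 members with levels within 2-fold the median was 0.20. FGB, the fibrinogen beta chain, was at similar levels in both lines, with 85.9 and 70.2 CPM in HepG2 cytoplasm, 110.1 and 92.5 in HepG2 nucleus, 70.4 and 56.9 in SNU-449 cytoplasm and 218 and 179.9 in SNU-449 nucleus. Its SNU-449 nucleus stood highest, and the difference was 1.26 (SE 0.22, adjusted p = 2.33e-05). TFPI, the inhibitor of the tissue factor pathway, differed by 2.15 (SE 0.21, adjusted p = 3.12e-09), SERPINF1, pigment epithelium-derived factor, by 2.65 (SE 0.27, adjusted p = 8.07e-09), and LCAT, which esterifies plasma cholesterol, by 1.25 (SE 0.22, adjusted p = 3.6e-05). SERPINF1 was at 998 and 693 CPM in HepG2 cytoplasm, 621 and 664 in HepG2 nucleus, 4.68 and 3.46 in SNU-449 cytoplasm and 18.8 and 19.9 in SNU-449 nucleus, so its SNU-449 ratio rests on low levels. AFP, the fetal albumin, and SERPINA3, antichymotrypsin, were more nuclear in HepG2, with -1.63 (SE 0.37, adjusted p = 0.000724) and -1.11 (SE 0.25, adjusted p = 0.000765).

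Extracellular matrix genes had 15 members more nuclear in SNU-449 and 7 in HepG2 of 44 tested (median 0.41). COL4A2, a basement membrane collagen, was at 17.1 and 13.3 CPM in HepG2 cytoplasm, 9.25 and 7.65 in HepG2 nucleus, 387 and 365 in SNU-449 cytoplasm and 775 and 828 in SNU-449 nucleus. The gene was much higher in SNU-449. It was, relative to the typical gene, nuclear there and cytoplasmic in HepG2, with a difference of 1.92 (SE 0.23, adjusted p = 1.26e-07). LAMB1, a laminin chain, and NID1, nidogen, both higher in HepG2, differed by 2.02 (SE 0.22, adjusted p = 1.7e-08) and 1.61 (SE 0.21, adjusted p = 5.68e-07). COL7A1 and COL27A1, of anchoring fibrils and cartilage, were more nuclear in HepG2, with -1.36 (SE 0.21, adjusted p = 7.5e-06) and -1.26 (SE 0.21, adjusted p = 1.45e-05), and so was the membrane protease MMP14 (-3.39 (SE 0.48, adjusted p = 1.71e-06)), which was under 2 CPM in every HepG2 library.

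Of 40 integrins and receptor tyrosine kinases with related receptors, 19 were more nuclear in SNU-449 and 5 in HepG2 (median 0.30). The HepG2 count was 1 without SNU-449 cytoplasm NC replicate 2 and 3 without HepG2 nucleus NC replicate 2, and the median was 0.55 without HepG2 cytoplasm NC replicate 2. MET, the receptor of hepatocyte growth factor, was at 102 and 96.8 CPM in HepG2 cytoplasm, 74.4 and 70.6 in HepG2 nucleus, 120.3 and 109 in SNU-449 cytoplasm and 267 and 212 in SNU-449 nucleus. It was, relative to the typical gene, slightly cytoplasmic in HepG2 and nuclear in SNU-449, with a difference of 1.51 (SE 0.20, adjusted p = 7.78e-07). TGFBR3, betaglycan, differed by 2.26 (SE 0.26, adjusted p = 6.34e-08). ERBB3, the kinase-impaired partner of ERBB2, was at 440.4 and 388 CPM in HepG2 cytoplasm, 389.6 and 383 in HepG2 nucleus, 41.3 and 38.9 in SNU-449 cytoplasm and 13.2 and 10.8 in SNU-449 nucleus; the SNU-449 nucleus was lowest, and the difference was -1.64 (SE 0.21, adjusted p = 4.79e-07).

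Immediate-early genes, whose mRNAs are made on stimulation and decay fast, showed 15 members more nuclear in SNU-449 and 1 in HepG2 of 31 tested, with a median of 0.51 (SD 0.15). Their levels were mostly higher in SNU-449 (median 0.99, siPANAD libraries), and within 2-fold of equal level 8 and 1 of 13 were called (median 0.86). EGR1, a zinc finger transcription factor, was at 54.6 and 61.1 CPM in HepG2 cytoplasm, 48.1 and 38.7 in HepG2 nucleus, 4.0 and 4.12 in SNU-449 cytoplasm and 13.4 and 21.3 in SNU-449 nucleus. It was, relative to the typical gene, slightly cytoplasmic in HepG2 and nuclear in SNU-449, and the difference was 2.51 (SE 0.27, adjusted p = 1.41e-07). DUSP1, a MAP kinase phosphatase, and SGK1, a serum-induced kinase, differed by 1.5 (SE 0.20, adjusted p = 8.85e-07) and 1.47 (SE 0.20, adjusted p = 9.97e-07). SRF, the serum response factor, was the member more nuclear in HepG2 (-0.66 (SE 0.20, adjusted p = 0.00852)). Its call was lost with library totals (-0.35), without a filter beyond 1 count (-0.53) and with matched spread (-0.44). It was also lost without SNU-449 cytoplasm NC replicate 2 (-0.50).

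Hypoxia and glycolysis genes were called 8 and 6 times among 30 tested (median 0.06). These shares, 26.7% and 20%, were near the 22.3% and 20.2% of all genes. ADM, the vasodilator adrenomedullin, was at 58.2 and 55.8 CPM in HepG2 cytoplasm, 55.2 and 82.5 in HepG2 nucleus, 71.2 and 71.4 in SNU-449 cytoplasm and 399.6 and 443 in SNU-449 nucleus. Its SNU-449 nucleus stood apart from the other 3 groups, with a difference of 2.29 (SE 0.22, adjusted p = 4.88e-09). P4HA2, a collagen prolyl hydroxylase, differed by 1.44 (SE 0.20, adjusted p = 9.97e-07). VEGFA, the vascular growth factor, was at 304 and 283 CPM in HepG2 cytoplasm, 1185 and 1197 in HepG2 nucleus, 131 and 146 in SNU-449 cytoplasm and 221 and 217 in SNU-449 nucleus; it was more nuclear in HepG2, with a difference of -1.36 (SE 0.21, adjusted p = 4.92e-06).

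Fewer lists lay toward the HepG2 nucleus. Of 37 tested interferon response genes, 2 were more nuclear in SNU-449 and 13 in HepG2, whereas the list median of -0.08 was close to that of all genes and was 0.23 with library totals, where 6 and 11 were called. Without HepG2 cytoplasm NC replicate 2 the counts were 4 and 10, and without HepG2 nucleus NC replicate 1, SNU-449 cytoplasm NC replicate 2 or either SNU-449 nucleus library 1 member was called toward SNU-449. STAT2, a subunit of the interferon-induced factor ISGF3, was at 12.1 and 14.6 CPM in HepG2 cytoplasm, 137 and 142 in HepG2 nucleus, 12.7 and 14.4 in SNU-449 cytoplasm and 47.4 and 49.8 in SNU-449 nucleus. Its cytoplasmic level was the same in both lines within the spread of the duplicates, its nuclear level was over 2-fold higher in HepG2, and the difference was -1.53 (SE 0.21, adjusted p = 8.14e-07). UBE2L6, the conjugating enzyme of ISG15, and TAP1, the peptide transporter of antigen processing, were cytoplasmic in both lines and differed by -1.4 (SE 0.21, adjusted p = 3.97e-06) and -1.15 (SE 0.20, adjusted p = 3.51e-05). IFI27 went the other way at low level (3.04 (SE 0.52, adjusted p = 2.72e-05)).

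Among 31 p53 target genes, 4 were more nuclear in SNU-449 and 10 in HepG2, and the median was -0.33 (SD 0.07), or -0.01 with library totals, where 7 and 6 were called and all genes had a median of 0.34. Without HepG2 cytoplasm NC replicate 1 the counts were 7 and 9. MDM2, the ubiquitin ligase of p53, was at 71.9 and 85.8 CPM in HepG2 cytoplasm, 140.1 and 135 in HepG2 nucleus, 77.7 and 70.5 in SNU-449 cytoplasm and 54 and 41 in SNU-449 nucleus. It was, relative to the typical gene, nuclear in HepG2 and slightly cytoplasmic in SNU-449, with a difference of -1.44 (SE 0.21, adjusted p = 2.16e-06). DDB2 and POLH, of DNA damage recognition and bypass, also had the fractions in opposite order, and differed by -1.47 (SE 0.19, adjusted p = 4.41e-07) and -1.52 (SE 0.21, adjusted p = 1.04e-06). CDKN1A, the CDK inhibitor p21, was cytoplasmic in both lines, more so in SNU-449 (-1.26 (SE 0.20, adjusted p = 1.06e-05)). GDF15, a stress-induced cytokine, was more nuclear in SNU-449 (1.38 (SE 0.24, adjusted p = 3.45e-05)). Of 34 apoptosis regulators, 6 and 10 were called (median -0.05, and 0.27 with library totals). CASP9, the initiator caspase of the apoptosome, was at 12.7 and 13.4 CPM in HepG2 cytoplasm, 12.5 and 14.3 in HepG2 nucleus, 32.2 and 31.7 in SNU-449 cytoplasm and 6.91 and 6.87 in SNU-449 nucleus. Its fractions overlapped in HepG2, its SNU-449 cytoplasm stood over 4-fold above the SNU-449 nucleus, and the difference was -2.24 (SE 0.23, adjusted p = 7.42e-09). BAK1, a pore-forming BCL2 relative, differed by -1.21 (SE 0.22, adjusted p = 6.15e-05).

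Genes of mitosis were called more often toward SNU-449: of 50 tested, 17 were more nuclear in SNU-449 and 6 in HepG2 (median 0.35, SD 0.09). NDC80, a kinetochore protein that binds microtubules, was at 21.4 and 22.3 CPM in HepG2 cytoplasm, 22.9 and 20.8 in HepG2 nucleus, 12.5 and 11 in SNU-449 cytoplasm and 64.1 and 55.2 in SNU-449 nucleus. Both HepG2 fractions were equal within the spread of the duplicates, and in SNU-449 the nuclear level was about 5-fold the cytoplasmic one; the difference was 2.34 (SE 0.21, adjusted p = 1.26e-09). Its partner NUF2 differed by 2.43 (SE 0.24, adjusted p = 6.01e-09), the mitotic kinase AURKA by 1.38 (SE 0.19, adjusted p = 1.35e-06) and the kinetochore protein CENPF, nuclear in both lines, by 1.58 (SE 0.23, adjusted p = 2.09e-06). SPC24, another subunit of the NDC80 complex, was more nuclear in HepG2 (-1.6 (SE 0.22, adjusted p = 1.4e-06)). It was at 24.2 and 17.7 CPM in HepG2 cytoplasm, 17.9 and 21.9 in HepG2 nucleus, 186 and 194 in SNU-449 cytoplasm and 66.3 and 54.1 in SNU-449 nucleus, with only its SNU-449 fractions apart.

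DNA replication genes were called in both directions, 15 and 14 of 50 tested. RRM1, the large subunit of ribonucleotide reductase, was more nuclear in SNU-449 (1.35 (SE 0.20, adjusted p = 2.57e-06)). POLD2, a subunit of DNA polymerase delta, differed by -1.41 (SE 0.22, adjusted p = 5.67e-06).

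Of 26 cyclins, kinases and regulators of the G1 phase, 6 were more nuclear in SNU-449 and 4 in HepG2 (median 0.07). These shares, 23.1% and 15.4%, stood beside 22.3% and 20.2% of all genes. CDK6, the G1 kinase named in the series title, was at 114 and 118 CPM in HepG2 cytoplasm, 78.1 and 74 in HepG2 nucleus, 207 and 205 in SNU-449 cytoplasm and 115 and 115 in SNU-449 nucleus. It was higher in SNU-449 in both fractions and, relative to the typical gene, cytoplasmic in both lines. Before scaling its fractions overlapped in both lines. They were then at 88.5 and 97.3 CPM in HepG2 cytoplasm and 91.5 and 82.9 in HepG2 nucleus. In SNU-449 they were at 149.7 and 143.1 in the cytoplasm and 143.3 and 146.2 in the nucleus. The line difference of -0.24 did not pass the test (adjusted p = 0.334). With library totals the sign of this difference turned (0.07). E2F3 and RBL2, a transcription factor and a pocket protein of the RB pathway, were more nuclear in SNU-449, with 1.38 (SE 0.21, adjusted p = 5.25e-06) and 1.5 (SE 0.23, adjusted p = 4.19e-06). CCND3, the cyclin D3 partner of CDK6, was more nuclear in HepG2 (-0.81 (SE 0.21, adjusted p = 0.00197)).

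The machinery of export itself showed 11 of 33 genes more nuclear in SNU-449 and 4 in HepG2 (median 0.26, SD 0.03). NXF1, the export receptor, was at 45.8 and 40.6 CPM in HepG2 cytoplasm, 218 and 215 in HepG2 nucleus, 20.6 and 21.1 in SNU-449 cytoplasm and 105 and 134 in SNU-449 nucleus. It was nuclear in both lines, with ratios of 2.32 and 2.52, and the difference of 0.19 (SE 0.21, adjusted p = 0.485) did not pass the test. The difference was -0.09 with matched spread and 0.50 with library totals, where it passed (adjusted p = 0.0421). RAN, the GTPase of nuclear transport, and XPOT, the tRNA exporter, differed by 1.0 (SE 0.21, adjusted p = 0.00026) and 1.03 (SE 0.21, adjusted p = 0.000234). DDX39A, an RNA helicase of the TREX complex, was at 186 and 183 CPM in HepG2 cytoplasm, 165 and 221 in HepG2 nucleus, 969.8 and 857 in SNU-449 cytoplasm and 389.6 and 405 in SNU-449 nucleus. In HepG2 its fractions overlapped, in SNU-449 it was cytoplasmic, and the difference was -1.27 (SE 0.22, adjusted p = 2.8e-05). Of 32 nuclear pore genes, 12 and 3 were called (median 0.35). TPR, the nuclear basket protein, and RANBP2, of the cytoplasmic filaments, were nuclear in both lines and more so in SNU-449, with 1.7 (SE 0.27, adjusted p = 4.05e-05) and 1.25 (SE 0.24, adjusted p = 0.000172). NUP85 and NUP43, of the Y-shaped scaffold, went the other way, with -1.41 (SE 0.20, adjusted p = 1.64e-06) and -1.09 (SE 0.19, adjusted p = 3.27e-05).

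Of 60 genes of the spliceosome with SR and hnRNP proteins, 17 were more nuclear in SNU-449 and 7 in HepG2 (median 0.20); without HepG2 cytoplasm NC replicate 1 the counts were 14 and 12. HNRNPH3 and HNRNPA1, both hnRNP proteins, differed by 1.76 (SE 0.20, adjusted p = 6.89e-08) and 1.44 (SE 0.21, adjusted p = 3.5e-06). SRSF4, an SR protein, was at 53.5 and 58.6 CPM in HepG2 cytoplasm, 347 and 315 in HepG2 nucleus, 85.3 and 79.9 in SNU-449 cytoplasm and 169 and 185 in SNU-449 nucleus, more nuclear in HepG2, with a difference of -1.46 (SE 0.20, adjusted p = 9.97e-07). Genes known to hold detained introns, whose unspliced copies wait in the nucleus, were called 11 and 8 times of 40. These shares, 27.5% and 20%, were near the 22.3% and 20.2% of all genes. The median was 0.18, and -0.05 with matched spread. Leaving out any 1 of the 4 SNU-449 libraries brought the HepG2 count to 4 or 5. OGA, the enzyme that removes O-GlcNAc from proteins, and TAF1D, a polymerase I factor, were more nuclear in SNU-449, with 1.9 (SE 0.22, adjusted p = 8.52e-08) and 1.3 (SE 0.20, adjusted p = 5.69e-06). MAT2A, which makes S-adenosylmethionine, was at 87.5 and 105 CPM in HepG2 cytoplasm, 882 and 765 in HepG2 nucleus, 86.7 and 81.3 in SNU-449 cytoplasm and 249 and 299 in SNU-449 nucleus. Its cytoplasmic levels were similar in the lines and its nuclear level was about 3-fold higher in HepG2, with a difference of -1.39 (SE 0.22, adjusted p = 6.3e-06). The SR protein genes SRSF6 and SRSF11 also were more nuclear in HepG2 (-1.08 (SE 0.20, adjusted p = 9.04e-05) and -1.39 (SE 0.21, adjusted p = 3.77e-06)), and SRSF3 in SNU-449 (0.96 (SE 0.22, adjusted p = 0.000627)).

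Of 40 genes of MYC and ribosome biogenesis, 15 and 5 were called (median 0.35), and 14 and 3 without HepG2 nucleus or SNU-449 cytoplasm NC replicate 2. NOP58, a core protein of box C/D snoRNPs whose gene also hosts snoRNAs, differed by 2.06 (SE 0.24, adjusted p = 3.88e-07), WDR75 of the small-subunit processome by 1.36 (SE 0.21, adjusted p = 5.1e-06), and NOP14 by -1.33 (SE 0.20, adjusted p = 3.62e-06). KRAB zinc finger genes of chromosome 19, a family of DNA-binding repressors, had 47 and 23 calls of 154 (median 0.29, or 0.09 among members with at least 5 CPM in each line). ZNF331 was at 9.48 and 7.45 CPM in HepG2 cytoplasm, 39.6 and 37.1 in HepG2 nucleus, 3.02 and 2.58 in SNU-449 cytoplasm and 58.9 and 66.8 in SNU-449 nucleus, and its difference was 2.29 (SE 0.25, adjusted p = 3.47e-08). ZNF121 differed by 1.99 (SE 0.22, adjusted p = 3.4e-08), and ZNF586 in the other direction by -2.23 (SE 0.37, adjusted p = 1.86e-05). Cholesterol synthesis genes were called 4 and 5 times of 24, and 2 and 5 times without HepG2 nucleus or SNU-449 cytoplasm NC replicate 2. The shares of the 4 and 5 cholesterol synthesis calls, 16.7% and 20.8%, stood beside 22.3% and 20.2% of all genes. MVK, mevalonate kinase, was at 40.1 and 31.8 CPM in HepG2 cytoplasm, 31.6 and 34.4 in HepG2 nucleus, 167 and 152 in SNU-449 cytoplasm and 39 and 43.3 in SNU-449 nucleus. Only its SNU-449 cytoplasm stood above the other groups, with a difference of -1.84 (SE 0.20, adjusted p = 3.13e-08). FDPS, farnesyl diphosphate synthase, and LSS, lanosterol synthase, differed by -1.28 (SE 0.21, adjusted p = 1.18e-05) and -1.06 (SE 0.20, adjusted p = 0.000105).

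**Figure D3:**
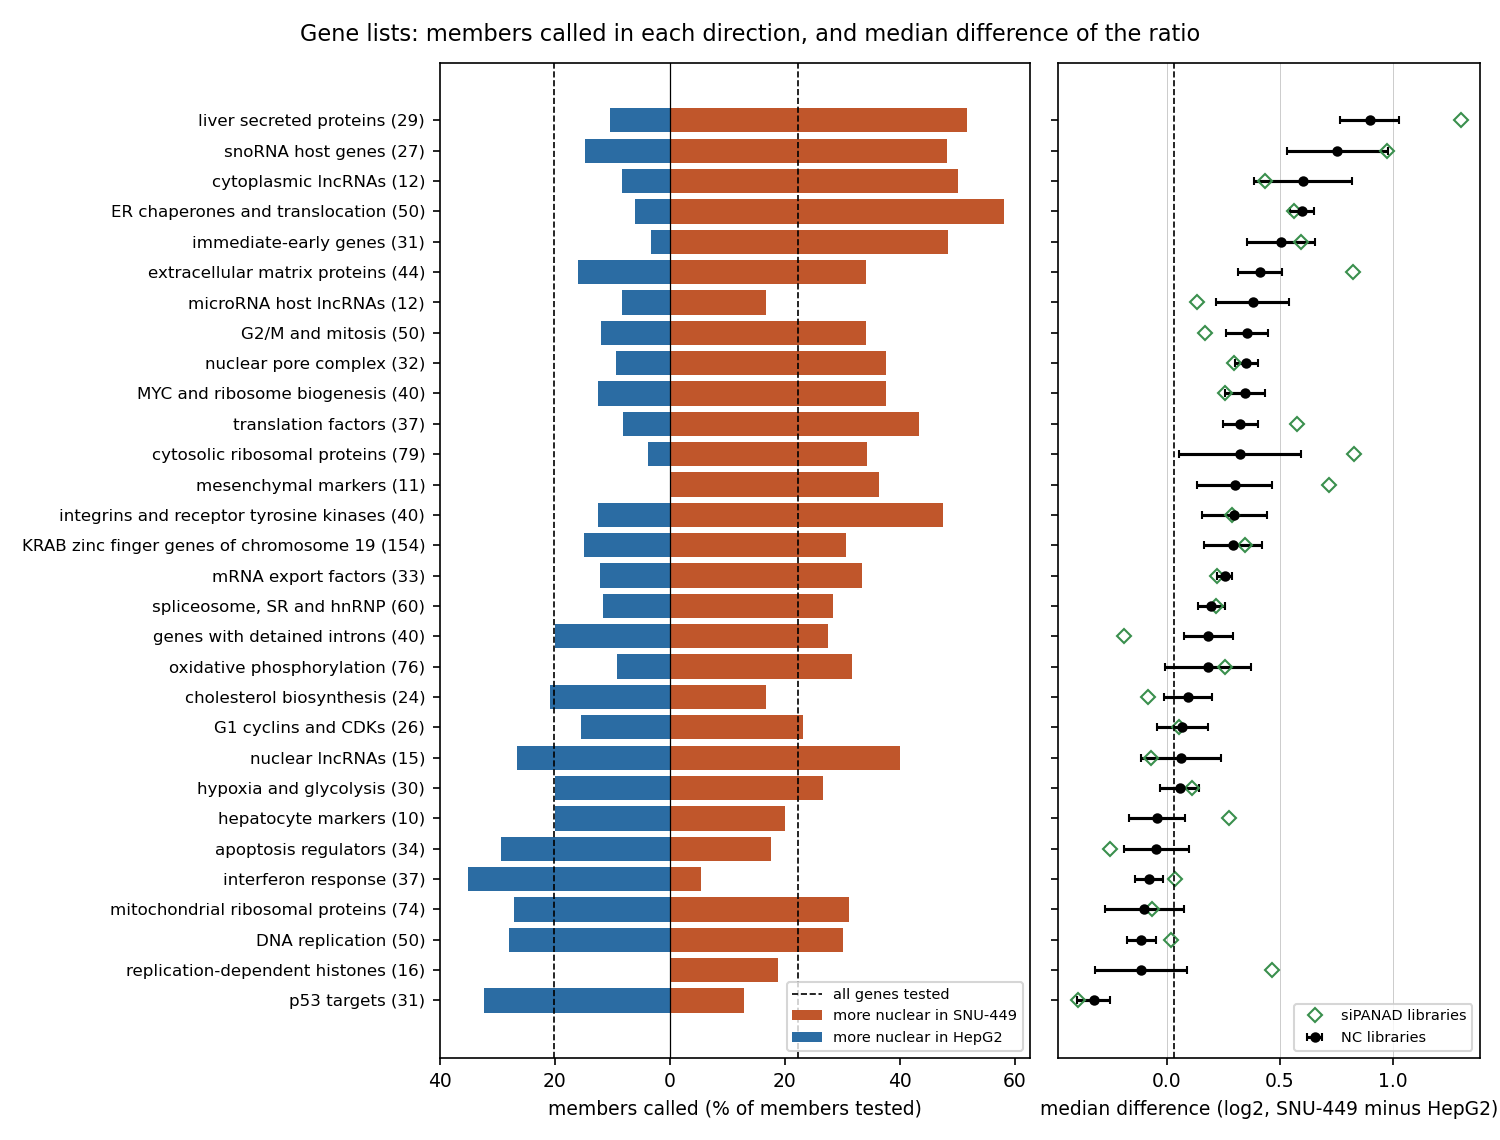
Left, share of the tested members of each gene list with at least 10 of them called as more nuclear in SNU-449 (red, to the right) or in HepG2 (blue, to the left), with the number tested in brackets and the shares of all genes, 22.3% and 20.2%, as dashed lines. Right, median log2 difference of each list in the NC libraries (points; bars are the SD over the 16 combinations of 1 library per group) and in the siPANAD libraries (diamonds), with the median of all genes, 0.03, dashed; the endoplasmic reticulum list has 29 of 50 members toward SNU-449 and a narrow bar.

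The smaller lists had few tested members, and their calls stand beside 42.5% called of all genes tested. Of 16 tested replication-dependent histone genes 3 were called, of 3 metallothioneins 2 and of 11 mesenchymal markers 4, each toward SNU-449, and of 10 hepatocyte markers 2 in each direction. The counts of histones and mesenchymal markers fell to 1 and 2 without SNU-449 cytoplasm NC replicate 2, that of mesenchymal markers to 2 also without HepG2 cytoplasm NC replicate 1 or HepG2 nucleus NC replicate 2, and that of metallothioneins to 1 without HepG2 cytoplasm NC replicate 2. The sources used here do not state how RNA was selected for the libraries.

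The difference in the ratio went with the difference in level between the lines. The level of each gene was taken from the siPANAD libraries, which the NC comparison did not use, as the mean log2 level over both fractions. Level and ratio are made of the same fractions, so genes that differ between the lines mainly in the cytoplasm give this pattern by construction. The cytoplasmic difference was the larger for 62.5% of all genes tested, and separate libraries do not remove this link. How much of the pattern comes from it was not tested. Of the 8279 genes within 2-fold of equal level, 1872 were more nuclear in SNU-449 and 1600 in HepG2 (median 0.04). Of the 1701 genes that were 2 to 4-fold higher in HepG2, 631 were more nuclear in SNU-449 and 193 in HepG2 (median 0.50). Of the 1788 genes that were 2 to 4-fold higher in SNU-449, 170 and 582 were called (median -0.31). In the most line-specific genes, over 16-fold apart, the counts were 91 and 37 of 286 for HepG2 and 18 and 66 of 163 for SNU-449. In each of these 4 classes more genes were called toward the nucleus of the line in which their level was lower. With library totals the medians of the 2 to 4-fold classes were 0.80 and 0.00, around a median of 0.34 for all genes, and 849 and 108 genes of the HepG2 class and 312 and 356 of the SNU-449 class were called. In these classes 45 of the 1701 and 8 of the 1788 genes had an NC group with no counts, and with such groups set to the limit of 3 counts the medians were 0.46 and -0.30. Among genes with at least 5 CPM in each line, 525 and 154 were called in the 2 to 4-fold HepG2 class and 129 and 519 in the 2 to 4-fold SNU-449 class. Of the classes over 16-fold apart, this minimum left 43 and 41 genes: 21 and 9 were called where the level was higher in HepG2, but 11 and 8 where it was higher in SNU-449, which does not follow the pattern of the other classes.

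Longer genes lay further in the SNU-449 nucleus. Protein-coding genes were divided into 4 bins of equal number by gene length, introns included, with borders at 13168, 31688 and 72791 bases. From the shortest to the longest bin, 490, 609, 752 and 919 genes were more nuclear in SNU-449, and 796, 771, 532 and 406 in HepG2. The medians were -0.17, -0.09, 0.08 and 0.24, and with library totals 0.15, 0.22, 0.39 and 0.56, in the same order. Within 2-fold of equal level the medians were -0.17, -0.06, 0.10 and 0.24. By exonic length the medians were -0.03, -0.04, 0.02 and 0.13, but with matched spread 0.06, 0.01, 0.04 and 0.07, with no order by length. Genes of a single exon, 158 tested, were called 45 and 7 times (median 0.24). Of the 2139 genes with at least 10% of their exonic bases opposite another gene, 349 and 485 were called, against 2733 and 2323 of 11628 with less overlap.

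**Figure D4:**
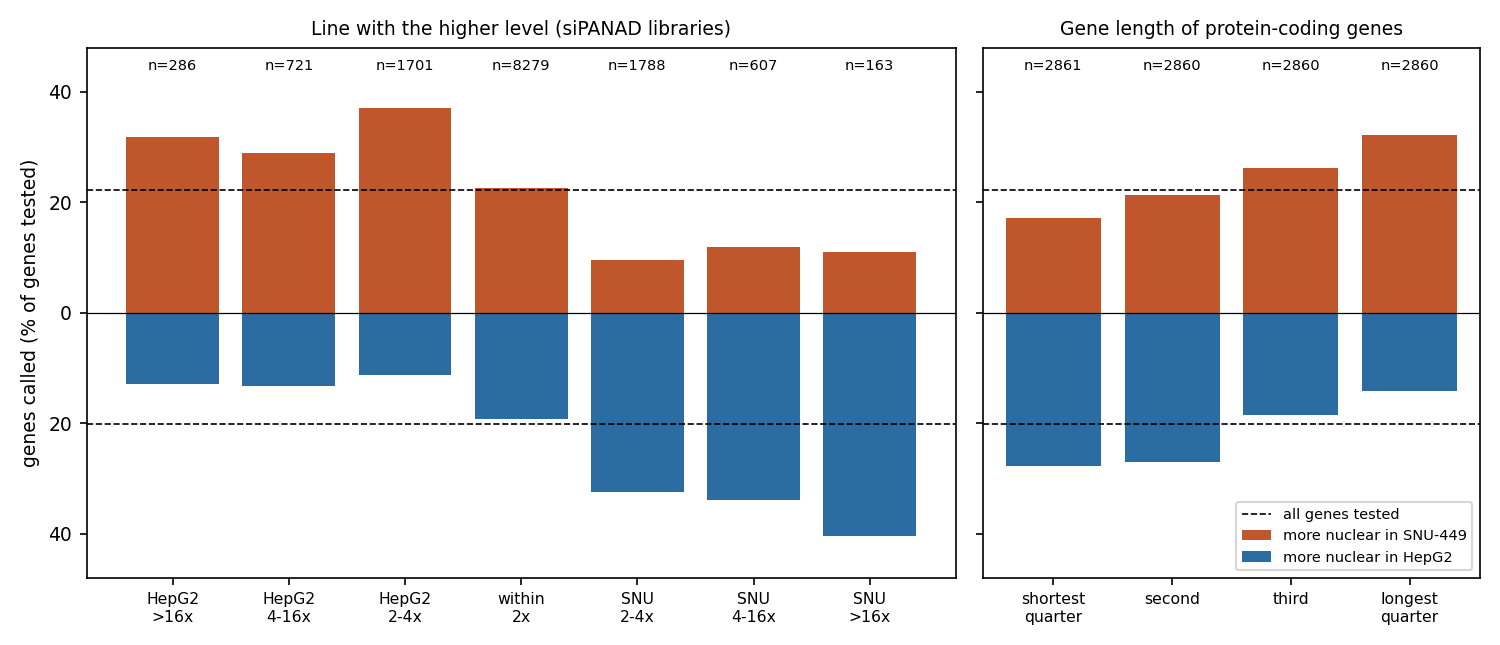
Share of genes called as more nuclear in SNU-449 (red, upward) or in HepG2 (blue, downward), by the line in which the gene's level was higher in the siPANAD libraries (left) and by gene length of protein-coding genes in 4 bins of equal number (right), with the number tested above each bar and the shares of all genes, 22.3% and 20.2%, as dashed lines. Calls toward SNU-449 outnumber those toward HepG2 where the level was higher in HepG2 (631 against 193 at 2 to 4-fold) and in the longest genes (919 against 406).

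The same line difference was measured in the 8 siPANAD libraries, which share no library with the NC comparison. In a fit of their own with 14413 genes, 3652 (25.3%) were more nuclear in SNU-449 and 4118 (28.6%) in HepG2, together 7770 (53.9%). Of the NC calls toward SNU-449, 2379 were called there in the same direction, which is 76.5% of the NC calls and 65.1% of the siPANAD calls; for HepG2 it was 2340, or 83.0% and 56.8%. The opposite direction was called for 12 and 10 genes. Over the 13545 genes tested in both sets the differences had a Pearson coefficient of 0.733, across genes, which are not independent, and the sets share the lines, media and count tables. The endoplasmic reticulum list had a median of 0.56, the ribosomal proteins one of 0.83 with 52 and 2 calls, and the p53 targets one of -0.39. Other lists differed from NC: the interferon response genes were called 9 and 14 times (median 0.04), integrins and receptor tyrosine kinases 14 and 11 times, and genes with detained introns 15 and 17 times (median -0.19); these differences between the sets were not tested for the lists.

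Beside the NC values, MFNG differed by 4.67 (SE 0.18, adjusted p = 2.38e-21) in the siPANAD libraries, PON1 by 4.62 (SE 0.38, adjusted p = 1.46e-12), RPS24 by 3.26 (SE 0.12, adjusted p = 2.38e-21) and HSPA5 by 1.77 (SE 0.12, adjusted p = 1.32e-14). NEAT1 differed by 1.98 (SE 0.14, adjusted p = 4.2e-14) and SNHG1 by 3.38 (SE 0.14, adjusted p = 1.05e-20). Toward HepG2, CDH4 differed by -3.99 (SE 0.32, adjusted p = 5.26e-13), NPEPL1 by -6.78 (SE 0.30, adjusted p = 5.64e-20), STAT2 by -0.89 (SE 0.16, adjusted p = 9.46e-06) and MVK by -2.02 (SE 0.13, adjusted p = 4.13e-15). All of these have the sign they had in the NC libraries, where CDH4, NPEPL1 and STAT2 had -5.19, -5.28 and -1.53. A direct test of the siPANAD minus the NC line difference, in 1 fit of all 16 libraries, called 130 of 13545 genes (0.960%), with 1936 at an unadjusted p under 0.05. That count ranged from 23 to 555 when 1 library was left out, so that a gene missing among these calls is not shown to have equal differences in both sets.

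**Figure D5:**
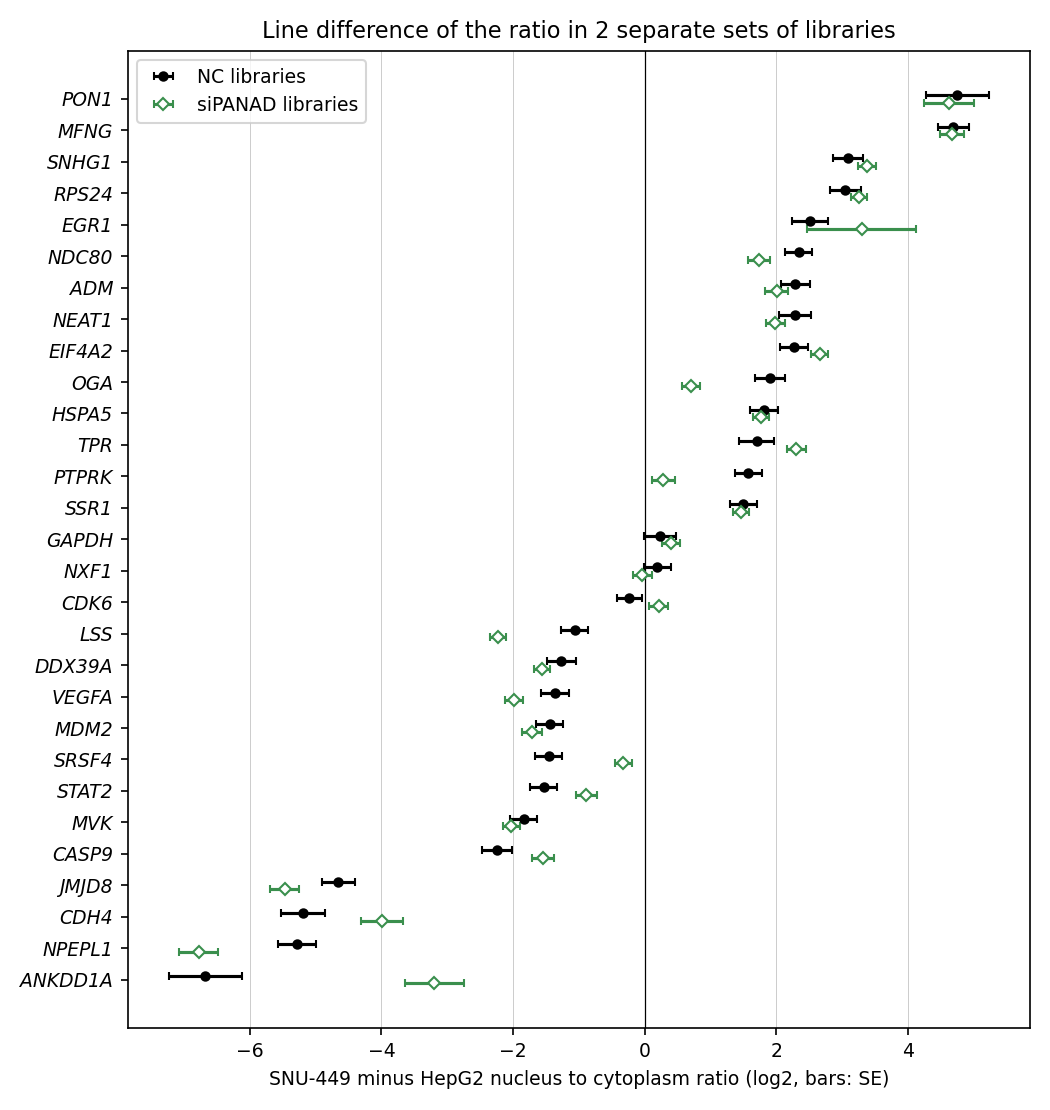
Line difference of the ratio (log2, SNU-449 minus HepG2, bars are the SE of the fit) of 29 genes in the NC libraries (filled points) and in the siPANAD libraries (open diamonds), fitted separately, ordered by the NC value. The values lie on the same side of 0 for MFNG, NEAT1, HSPA5, STAT2 and CDH4, while PTPRK, OGA and SRSF4 lie nearer to 0 and LSS further from 0 with siPANAD.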

How the data were processed

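RNA of cytoplasmic and nuclear fractions was sequenced from directional libraries, per the labels' protocols. The authors deposited unnormalized read counts of each gene, with a separate table for each line; Trim Galore 0.6.4, HISAT2 2.2.1 and the hg38 build are named in the submitters' processing notes, and the counting program, annotation release and strand setting are not given in the sources used here. Counts were used as deposited. Symbols came from a gene table (61398 of 67938 identifiers matched) and positions, classes and overlaps from GENCODE 29 on GRCh38 (58395 matched); identifiers without a symbol held 0.0359% of counts, and 1 entry broken over several lines (ANK2) was left out. Groups and replicate numbers came from the sample titles.

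Genes passing filterByExpr (minimum count 10) in the NC libraries of each line were fitted with edgeR 4.0.16 in R 4.3.3 (TMM scaling, robust glmQLFit, glmQLFTest, two-sided), 1 mean per group, and the contrast (SNU-449 nucleus minus cytoplasm) minus (HepG2 nucleus minus cytoplasm) was tested with Benjamini-Hochberg adjustment over all 13940 genes at 0.05. The biological coefficient of variation was 0.106. The SE is the absolute difference over the root of F. Nothing in the labels says how the duplicates were grown, beyond that they are biological, so p-values measure the spread between these samples. A count of 0 allows 3 counts, or 0.0989 to 0.185 CPM; this covers counting error only. In simulated data for this comparison (13940 genes), 50 genes were changed by each of 1, -1, 2 and -2. Of these, 70%, 44%, 92% and 78% were recovered in that order, and 13 of 13740 unchanged genes were called. Far fewer genes were changed there than were called in the real data (42.5%), so these rates do not carry over to the real comparison.

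Named genes were CDK6, NXF1, C7orf25, MALAT1, NEAT1 and GAPDH; the 10 protein-coding and 5 other called genes with the largest difference each way (mean of at least 2 CPM in each line, pairings apart); the 5 each way with opposite called ratios; and up to 4 members per list and direction with the smallest p. Some genes that this rule names are not reported here. Members and lists were chosen with earlier results of these data known. The labels do not say whether the fractions of a replicate came from the same culture, and samples were not paired. The correlation of duplicate differences between the fractions, 0.0540 in HepG2 and -0.0184 in SNU-449, cannot decide it. Alternatives were other scalings, filters, DESeq2 1.42.0, all 16 libraries in the fit, a replicate block, ratios of matched spread (SNU-449 ratios multiplied by 0.890), each library left out, and, added after seeing the data, list members within 2-fold of equal level.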

Additional observations from a re-analysis of the deposited data

Results flagged for a closer look

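For 4 of the genes described the line difference itself differed between the siPANAD and the NC libraries, by the 3-way contrast of line, fraction and siRNA in edgeR over 13545 genes, of which 0.960% were called. The line difference of LSS, lanosterol synthase, was -1.09 (SE 0.23, adjusted p = 0.0156) further toward HepG2 with siPANAD: it was -2.23 with siPANAD and -1.06 in NC. For OGA the value was -1.12 (SE 0.26, adjusted p = 0.0330), with 0.71 beside 1.9. PTPRK, a receptor-type tyrosine phosphatase, had -1.22 (SE 0.26, adjusted p = 0.0156), with 0.28 beside 1.57. SRSF4 had 1.21 (SE 0.22, adjusted p = 0.00936), with -0.32 beside -1.46. The line differences of OGA, PTPRK and SRSF4 lay nearer to 0 with siPANAD. C7orf25, the siRNA target, had 0 to 7 counts in the NC libraries, too few to check the knockdown.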

How the results depend on the processing

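Of the 5926 genes called in NC, none changed sign under a scaling, filter or tool that tested it, called there or not, and 1 did so without each of HepG2 cytoplasm NC replicate 2 and SNU-449 cytoplasm NC replicate 2. A different scaling moves all differences by nearly the same amount, so an unchanged sign under it is no separate check. The scaling moved the counts most. With library totals 4675 genes were more nuclear in SNU-449 and 1632 in HepG2 (74.1% of calls toward SNU-449, against 52.4% in the report). Without a filter beyond 1 count the counts were 3591 and 2119 (62.9%), with a median of 0.17 over 36175 genes. With RLE scaling the counts were 2860 and 3179 and with DESeq2 2486 and 2864, so that under both more genes were called toward HepG2 than toward SNU-449. Leaving out 1 library at a time gave 2474 to 3176 genes toward SNU-449 and 2207 to 2970 toward HepG2. With the replicate block the counts were 3082 and 2797, with no further check of pairing possible at 2 libraries per group. Of the genes that did not pass the test, GAPDH and NXF1 passed it with library totals (0.533, adjusted p = 0.0321, and 0.50, adjusted p = 0.0421). GAPDH was at -0.00513 without HepG2 cytoplasm NC replicate 1 and at 0.429 without its duplicate. CDK6 had 0.0738 with library totals and NXF1 -0.0874 with matched spread.

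The siPANAD minus NC test called 222 genes by DESeq2 in place of 130, and 23 to 555 when 1 library was left out. It called 555 without HepG2 cytoplasm NC replicate 1, and 23 to 85 without either HepG2 cytoplasm siPANAD, HepG2 nucleus siPANAD, SNU-449 cytoplasm NC, SNU-449 nucleus NC, SNU-449 cytoplasm siPANAD or SNU-449 nucleus siPANAD library; the cause was not tested. With 2 libraries per group the precision is limited by their number, and differences of genes under about 1 CPM in a group rest on few counts.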

Other observations

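Several non-coding and pseudogene transcripts outside the lists were among the genes with the largest differences toward the HepG2 nucleus. MAP4K3-DT, a divergent transcript beside MAP4K3, was at 14.6 and 18.5 CPM in HepG2 cytoplasm, 14.2 and 14.8 in HepG2 nucleus, 13.1 and 13.1 in SNU-449 cytoplasm and 0.768 and 1.12 in SNU-449 nucleus. Only its SNU-449 nucleus stood apart, below the other groups, and the difference was -3.58 (SE 0.30, adjusted p = 2.4e-10). PLEKHM1P1, a pseudogene that may share reads with its parent gene, was at 8.54 and 7.85 CPM in HepG2 cytoplasm, 47.6 and 48.4 in HepG2 nucleus, 27.5 and 31.5 in SNU-449 cytoplasm and 17.3 and 17 in SNU-449 nucleus, with the fractions in opposite order and a difference of -3.34 (SE 0.21, adjusted p = 1.04e-12). The antisense genes KDM4A-AS1 and VPS9D1-AS1 differed by -3.6 (SE 0.35, adjusted p = 3.45e-09) and -3.26 (SE 0.44, adjusted p = 8.85e-07), and 24% and 29.5% of their exonic bases lie opposite another gene. The pseudogene classes were split: of 259 unprocessed pseudogenes, 39 were more nuclear in SNU-449 and 58 in HepG2 (15.1% and 22.4%, beside 22.3% and 20.2% of all genes), while of 414 processed pseudogenes 73 and 26 were.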
